A study of Oryza sativa with 6 samples.

Results

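The genes described here are 9 rice regulators of light signalling, chosen by name and locus: the phytochrome-interacting factor-like genes OsPIL11 to OsPIL16, a PIF4-like gene, an HFR1-like gene and an HY5-like gene. They are 9 loci set beside 24592 loci that carry at least 1 peak in a list of PIF4-GFP peaks, and 8 of the 9 also have a row in expression tables of 1177 genes. The material was rice leaf taken at 3 weeks of age from pots under fluctuating light together with drought, in 2 groups of 3 libraries: a line overexpressing PIF4 fused to GFP (PIF4-GFP) and a GFP mock line (GFP mock). Both groups were under the same light and drought, so neither can be set against an unstressed plant. The promoter that drives the fusion, the species of its PIF4 sequence, and whether the genotype numbers 1 to 3 mark lines or repeats are stated by no source used here. The sample labels describe RNA libraries, while the series is described as ChIP-seq, and the peak names begin with PIF4-GFP1, so the peaks may come from 1 library.

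Phytochrome-interacting factors (PIFs) are basic helix-loop-helix (bHLH) proteins that bind G-box and related E-box elements in DNA. In Arabidopsis, light-activated phytochrome binds them and promotes their degradation, and they drive growth in darkness and shade. HY5, a basic leucine zipper (bZIP) protein that recognises overlapping elements, acts largely against them and is degraded in the dark through the ubiquitin ligase COP1. HFR1 is an atypical bHLH protein that pairs with PIFs and keeps them from DNA. The comparison asked here is therefore whether the genes of this network themselves carried PIF4-GFP peaks.

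Of the 9 genes, 6 (66.7%) had a listed peak at their locus and 5 (55.6%) had one classed as promoter. Among the 1177 rows of the expression tables, most of which are transcription factor genes, the shares were 77.4% for any class and 71.8% for a promoter peak, so the shares among the 9 genes, each resting on a handful of genes, were not above that background. OsPIL15, which had no peak, has no row there. Of the 8 genes with a row, 6 had a peak and 5 a promoter peak. In the 52 rows described as helix-loop-helix genes, some of the 9 among them, 39 had a peak and 36 (69.2%) a promoter peak. OsPIL12, OsPIL13, OsPIL14, OsPIL16 and the HY5-like gene had the promoter peaks. OsPIL11 had an intron peak. OsPIL15, the PIF4-like gene and the HFR1-like gene had none assigned to them. Within the PIF-like group alone, counting the PIF4-like gene, 5 of 7 genes had a peak and 4 of 7 a promoter peak. The list gives no score, fold or p-value for a peak and comes with no GFP mock peaks, so no value of a peak has a replicate error or a background, and no test was made.

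**Figure D1:**
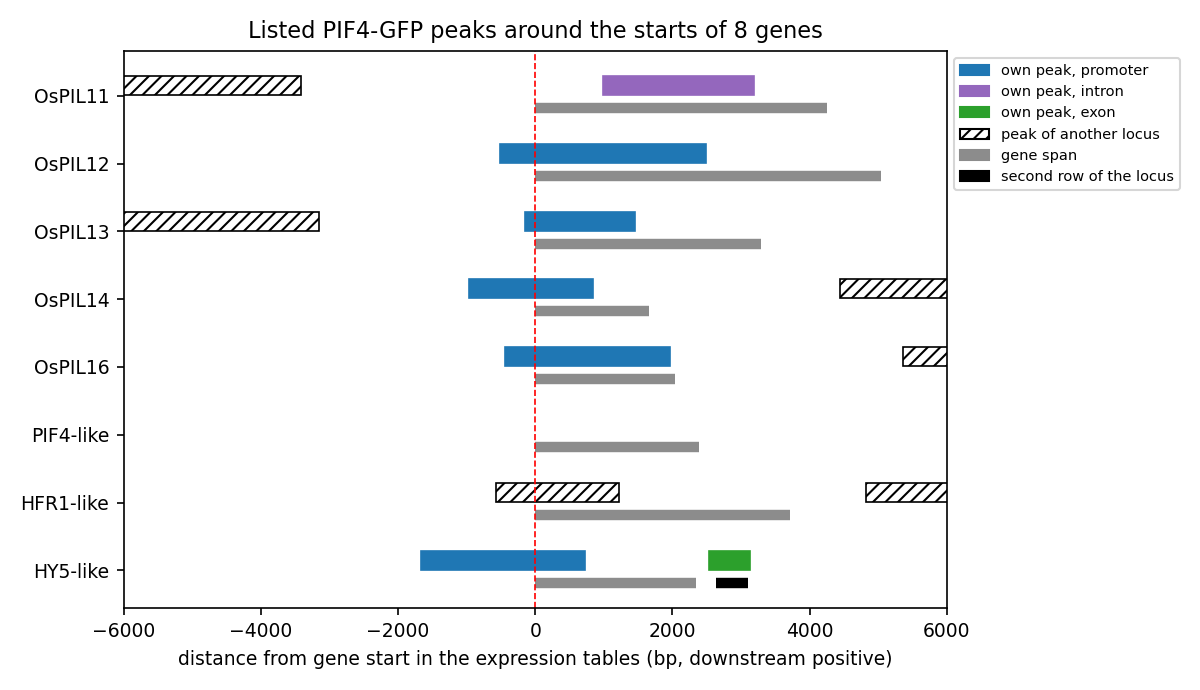
Listed peaks (upper bars, coloured by class when assigned to the gene and hatched when assigned to another locus) and gene spans from the expression tables (grey lower bars; black, the other row of the HY5-like locus) for the 8 genes with a row, drawn in the direction of transcription against distance in bp from the gene start. Promoter peaks cover the start of 5 genes, the OsPIL11 peak begins 992 bp downstream of its start, a peak of another locus covers the HFR1-like start, and no peak is drawn for the PIF4-like gene.

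OsPIL13, known in rice as OsPIL1 and as a regulator of internode elongation that is reduced under drought, carried a promoter peak that was 1600 bp wide, at 32432400 to 32433999 on chromosome 3 (LOC_Os03g56950, plus strand). Its centre lay 743 bp downstream of the start used in the list. The peak reached 151 bp upstream of the gene start in the expression tables (Os03g0782500, 32432551 to 32435839) and 1448 bp downstream, so 9.44% of its width lay ahead of the gene. It was the narrowest of the promoter peaks described here, and 46.1% of the 23278 promoter peaks of the list were at least as wide.

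OsPIL12 had the widest peak of the group. Its promoter peak spanned 3000 bp on chromosome 3 from 24544000 to 24546999 (LOC_Os03g43810, plus strand), a width reached by 15.6% of promoter peaks. It began 511 bp upstream of the start in the tables (Os03g0639300, 24544511 to 24549550) and ended 2488 bp inside the gene. The start used by the list lay 604 bp downstream of that in the tables, which places the centre at 384 bp. The nearest listed peak on the left was 25200 bp away and on the right 18000 bp away, and with 6 listed peaks centred within 50 kb of its start this gene had the lowest number among the 8 genes with a row, which ran up to 14 for the HY5-like gene. The median over all rows of the tables was 10 (quartiles 8 and 13).

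OsPIL16, also named APG and in rice a repressor of grain length, had a peak 2400 bp wide in the promoter class at 2246400 to 2248799 on chromosome 5 (LOC_Os05g04740, plus strand), centred 764 bp downstream of the start. The gene is short in the tables (Os05g0139100, 2246835 to 2248876, 2042 bp), and the peak covered 96.2% of it. In the other genes with a peak of their own, the peak or peaks covered between 31.1% and 51.8% of the span. At this gene the class "promoter" therefore described a peak that ran across almost the whole transcribed unit.

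OsPIL14, which in rice links light to gibberellin signalling through the DELLA protein SLR1, carried a promoter peak that was 1800 bp wide, at 2206400 to 2208199 on chromosome 7 (LOC_Os07g05010, plus strand), centred 211 bp downstream of the start used in the list. It lay on both sides of the start in the tables (Os07g0143200, 2207362 to 2209018), with 962 bp, or 53.4% of its width, upstream. From the starts in the tables, OsPIL14 and the HY5-like gene had the largest upstream parts, 53.4% and 69.6% of the width, against 9.44% to 18.1% at OsPIL12, OsPIL13 and OsPIL16. These shares depend on the gene model. The start of the list lay upstream of that of the tables by 274 bp for OsPIL14, 517 bp for the HY5-like gene and 95 bp for OsPIL13, and downstream by 604 bp for OsPIL12, while both sources gave the same start for OsPIL16 and OsPIL11. From the starts of the list, 48.1% of the peak lay upstream at the HY5-like gene, 38.2% at OsPIL14, 37.2% at OsPIL12, 18.1% at OsPIL16 and 3.50% at OsPIL13, so no peak lay mostly upstream.

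The HY5-like gene was the only one of the 9 with more than 1 peak. The promoter peak lay at 5762400 to 5764799 on chromosome 2 and was 2400 bp wide (LOC_Os02g10860, minus strand). It was centred 46 bp from the start used in the list, the smallest distance in the group from the starts of the list. From the start in the tables (Os02g0203000, 5760788 to 5763128) it reached 1671 bp upstream and 728 bp downstream. From that source the OsPIL14 peak lay more evenly about its start, with 962 bp upstream and 837 bp downstream. The other peak, 600 bp from 5760000 to 5760599, was classed as exon 6 of 6 and centred 3346 bp downstream. This exon peak did not overlap the span of Os02g0203000 in the tables. It held all 462 bp of another row, Os02g0202950 (5760034 to 5760495, minus strand, described as similar to an OSIGBa0125M19.6 protein), which carries the same locus number. The locus of the list is thus split into 2 genes in the tables, and the exon peak belongs to the HY5-like gene under 1 model and to its downstream neighbour under the other. Of the 1153 loci in the tables, 24 had more than 1 row. In the whole list, 1330 of 24592 loci (5.41%) had the combination of 1 exon and 1 promoter peak, while 18735 (76.2%) had 1 promoter peak and nothing else.

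OsPIL11, similar to Arabidopsis PIF3 by its description, stood apart in class. Its peak, 2200 bp wide at 25769800 to 25771999 on chromosome 12 (LOC_Os12g41650, plus strand) was classed as intron 3 of 7 and centred 2091 bp downstream of the start. Near this position the limit between the promoter class and the exon and intron classes is one of distance: the farthest promoter peak of the list was centred 1999 bp downstream, and the nearest exon or intron peak 2001 bp downstream. Peaks classed as transcription end were centred from 657 bp on. OsPIL11 lay 92 bp past the former, and 77 of the 1566 intron peaks (4.92%) were centred between 2000 and 2200 bp. The widths of all but 1 of the listed peaks were multiples of 200 bp, so the centre is placed on a coarse grid. By its edges, the peak ran from 992 to 3191 bp downstream of the start (Os12g0610200, 25768808 to 25773052) and so did not reach the start under either limit. No number is missing between it and the next listed peak on the left, 4400 bp away. A lone intron peak was found at 269 loci (1.09%).

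**Figure D2:**
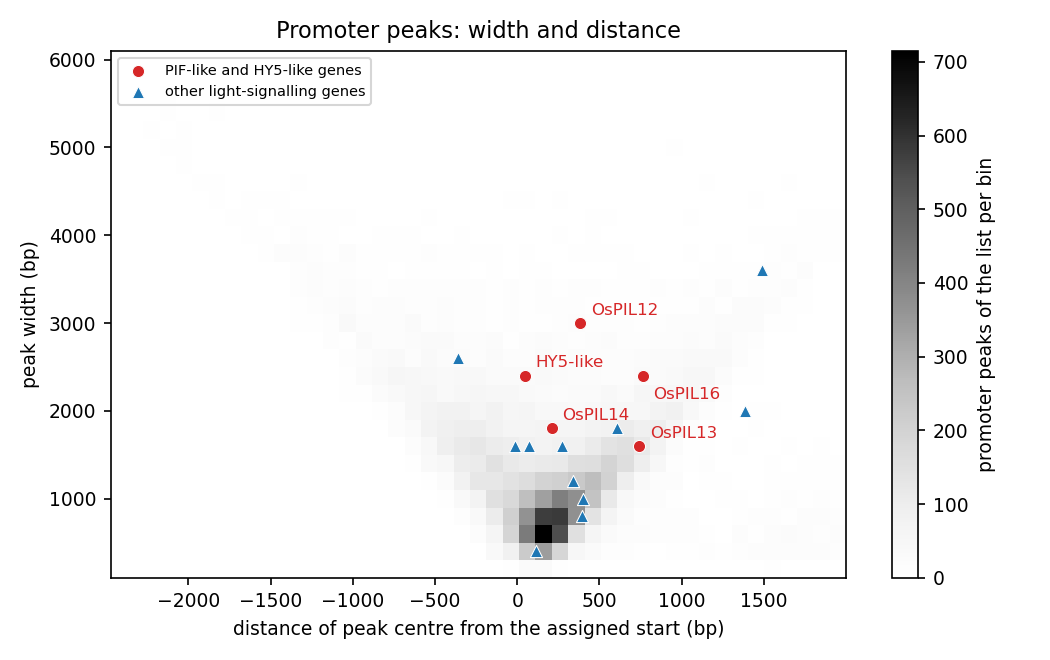
Width in bp of promoter peaks against the distance in bp of their centre from the assigned start, with the density of the list in grey (peaks up to 6000 bp wide), the 5 promoter peaks of PIF-like and HY5-like genes in red and those of 11 other light-signalling genes in blue. The red points lie between 1600 and 3000 bp in width and all have centres downstream of the start, from 46 to 764 bp.

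The median width of the 5 promoter peaks was 2400 bp, and all 5 were wider than the median promoter peak of the list, 1400 bp (quartiles 800 and 2200 bp). Their centres lay at a median of 384 bp downstream of the start, against 198 bp for the list. Each of them covered the start given in the tables. With 5 peaks from 1 list these are descriptions, and no difference from the list was tested.

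The HFR1-like gene had no peak assigned to its locus (LOC_Os04g52770), yet its start lay inside a listed peak. In the tables the gene runs from 31416378 to 31420095 on the plus strand of chromosome 4 (Os04g0618600). A peak of 1800 bp at 31415800 to 31417599 covers that start, with 32.1% of its width upstream and 1222 bp inside the gene, and is classed as a promoter peak of the neighbouring LOC_Os04g52760 on the minus strand. The start of that neighbour, computed from the distance in the list, lay 218 bp upstream of the HFR1-like start in the tables, so by these models the 2 genes are arranged head to head. The 2 sources placed the OsPIL12 start 604 bp apart, so this gap and the place of the peak depend on the gene model. The peak was centred 321 bp inside the HFR1-like gene and 539 bp from the start of the gene it is assigned to. No number is missing between this peak and the next one on the right, which lies 1104 bp beyond the end of the gene and is assigned to LOC_Os04g52780. Of the 266 rows of the tables with no assigned peak, 54 (20.3%) had their start inside a peak of another locus in this way. Counted by position, the starts of 6 of the 8 genes with a row lay inside a listed peak. The share was 66.9% over all rows and 53.8% (28 of 52) over the helix-loop-helix rows, and no test was made.

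RefSeq gives the PIF4-like gene (LOC_Os09g33580) the synonyms BC1, OsBC1, bHLH081, OsbHLH081 and OsJ_29973, none of which names a PIF. The gene lay in a stretch without listed peaks. Its span on chromosome 9 is 19812678 to 19815059 on the minus strand (Os09g0510500). The nearest listed peak beyond its end, at the transcription end of LOC_Os09g33559, stopped 12878 bp from the gene, and the nearest beyond its start, at the promoter of LOC_Os09g33600, began 15740 bp away. The distance from its start to the nearest listed peak, 15260 bp, was exceeded by 18 of the 1177 rows (1.53%), and the median for the 390 rows whose start was not covered was 2618 bp. Absence from the list is not absence of a peak: peak numbers rise with position on every chromosome, and 2 numbers are missing between those flanking peaks. The list holds 29513 peaks while the numbers run to 60035. No listed peak is classed as intergenic, although the promoter class holds centres as far as -18173 bp from the assigned start. If the missing numbers also follow position, 2 unlisted peaks lie somewhere in those 31000 bp. With 9 listed peaks centred within 50 kb of its start, the region as a whole was not poor in peaks.

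OsPIL15, a regulator of grain size and seedling growth in rice, had neither a listed peak nor a row in the tables, so its coordinates are not given here. By locus number, LOC_Os01g18290 falls between LOC_Os01g18270, whose promoter peak covers 5400 bp at 10259800 to 10265199 of chromosome 1, and LOC_Os01g18310, whose promoter peak of the same width lies at 10287400 to 10292799. The stretch between these peaks measures 22200 bp, and 3 numbers are missing there. Whether any of the unlisted peaks lies at OsPIL15 was not tested.

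The rest of the light pathway was described with a list of 11 genes taken by function: 6 photoreceptor genes, COP1, the HY5 paralogues OsbZIP01 and OsbZIP48, and the greening factors GLK1 and GLK2. All 11 had a promoter peak. The share was 71.8% in the rows of the tables, which are mostly transcription factor genes. Only 4 of the 11 genes have a row there, so that share is not a matched background for them. The phytochrome genes, whose products are the red and far-red receptors that PIFs bind, also had peaks at their transcription ends. The phyB gene (LOC_Os03g19590) had 3 peaks, of which the promoter peak was 1800 bp wide and centred 608 bp downstream. The phyA promoter peak (LOC_Os03g51030) was the narrowest of the list of 11, at 400 bp, and the CRY1a one (LOC_Os02g36380), of a blue-light receptor, the widest, at 3600 bp. COP1 (LOC_Os02g53140) had a promoter peak of 1600 bp centred 16 bp upstream of its start, and a peak at its transcription end. GLK2 (LOC_Os01g13740), which with GLK1 activates chloroplast genes, had 4 peaks. OsbZIP01 (LOC_Os01g07880) had 1 promoter peak of 1600 bp, centred 70 bp downstream. OsbZIP48 (LOC_Os06g39960) had 1 of 800 bp, centred 392 bp downstream. The median promoter peak of the list was centred 198 bp downstream. Peaks in these 11 genes had a median promoter width of 1600 bp. No test was made between the 2 gene sets.

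The expression tables give 1 FPKM value (fragments per kilobase of length, scaled to the library total) per row and library. In the 917 of 941 rows with reads that have a value in 4 or more libraries, the values can be written as whole reads over the product of a length for the row and a total for the library. The smallest whole totals that allow this lay between 14933740 and 17919095 reads, and 916 of the 917 lengths found with them are multiples of 3. The values fix only the product of length and total for a given number of reads, so these may be coding lengths. Otherwise those 916 lengths may be 3 times too long and the totals, then 44801220 to 53757285 reads, 3 times too small. The reads of these 916 rows are the same under both readings. Each length is also the smallest that gives whole reads in its row, and whole multiples with more reads fit as well. In a row with few reads, such as the one labelled HFR1-like, it is a lower limit. Under both, the lengths did not follow the genes named on the rows, with a Spearman correlation across rows between length and gene span of 0.024 (917 rows, which are not independent replicates). With the smaller totals the length was 2880 bp in the row labelled PIF4-like, whose gene spans 2382 bp in the tables and 2432 bp in RefSeq, 1146 bp in the row Os02g0202950 for a gene of 462 bp, and 3654 bp in the row labelled OsPIL14, whose gene spans 1657 bp in the tables and 3722 bp in RefSeq. It exceeded the table span in 191 of 917 rows (20.8%) and both spans in 113 of the 821 rows that have both (13.8%). With the larger totals the same 3 lengths were 960, 382 and 1218 bp, each below its table span. The length then exceeded the table span in 22 of 917 rows (2.40%), a count that falls whenever all lengths shrink. That reading also gave 297 bp in the row labelled OsPIL11 (span 4245 bp) and 67 bp in the row labelled HFR1-like (span 3718 bp). Its median length was 356 bp and its shortest 66 bp, against a median table span of 2486 bp. With the smaller totals the median length was 1068 bp. Which reading holds was not tested. Because length and gene span were nearly unrelated, the expression values below are given as values of labelled rows, not of identified genes. No row of the tables is described as a photosystem, chlorophyll or Rubisco gene (0 of 1177 rows), so leaf identity was not checked on them.

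**Figure D3:**
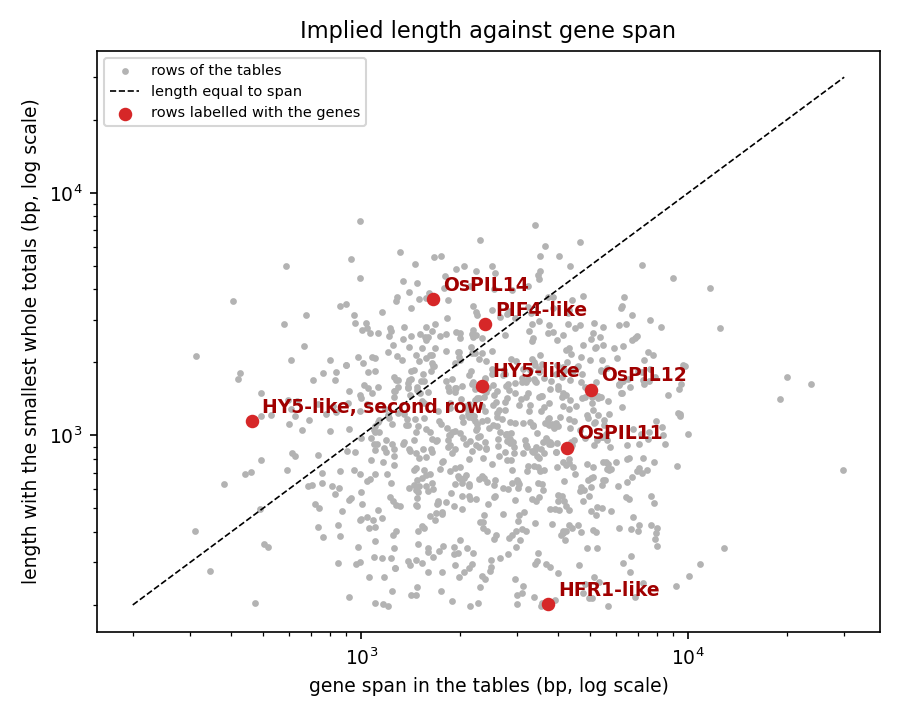
Length in bp implied by the FPKM values against the span in bp of the gene named on the row, both on log scales, for 917 rows (grey) and the 7 rows labelled with the genes described here (red), with a dashed line where both are equal (lengths found with the smallest whole totals; the other reading moves every point down by a factor of 3). The rows labelled OsPIL14 and PIF4-like and the other row of the HY5-like locus (Os02g0202950, named "HY5-like, second row") lie above the line.

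The row called PIF4-like here (Os09g0510500) is given first because that name is the nearest to the name of the overexpressed gene, although its RefSeq synonyms name no PIF. It was not higher in the overexpression line. It held 7.46, 6.86 and 7.85 FPKM in PIF4-GFP replicates 1, 2 and 3, from 349, 354 and 387 reads, and 8.021, 8.002 and 7.998 FPKM in GFP mock, from 354, 350 and 344 reads. All 3 PIF4-GFP values lay below all 3 GFP mock values, where 9.09% of the 847 rows tested separated in either direction and 7.91% in this one, and the log2(FPKM + 1) difference was -0.10 (95% interval -0.33 to 0.12, SE 0.11, limma adjusted p = 0.895). An exact two-sided permutation test gave p = 0.1, the smallest that 3 against 3 libraries allow. Because the lengths did not follow the row labels, and because the origin of the PIF4 sequence in the fusion is not given, this row checks neither the labels nor the overexpression.

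The row labelled OsPIL11 (Os12g0610200) held 23.4, 21.5 and 26.7 FPKM in PIF4-GFP and 23.2, 23.5 and 26.4 FPKM in GFP mock, from 317 to 407 reads per library. The groups overlapped, and the highest value of each came from replicate 3. Its log2 difference was -0.03 (95% interval -0.24 to 0.18, limma adjusted p = 0.966). The row labelled OsPIL14 (Os07g0143200) was the highest of the group, with 33.3, 35.3 and 37.3 FPKM in PIF4-GFP and 37.3, 35.0 and 38.0 FPKM in GFP mock. The groups overlapped again, with a log2 difference of -0.06 (95% interval -0.23 to 0.12, limma adjusted p = 0.895).

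The row labelled OsPIL12 (Os03g0639300) was low and the most scattered of those tested. It held 4.07, 2.75 and 3.03 FPKM in PIF4-GFP, from 102, 76 and 80 reads, and 3.39, 3.54 and 3.26 FPKM in GFP mock. PIF4-GFP replicate 1 was the highest library and replicate 2 the lowest, so the GFP mock values lay inside the range of PIF4-GFP. The log2 difference was -0.05 (95% interval -0.36 to 0.26, limma adjusted p = 0.959).

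The row labelled with the HY5-like gene (Os02g0203000) held 29.1, 26.3 and 31.1 FPKM in PIF4-GFP and 29.9, 27.4 and 30.2 FPKM in GFP mock, with a log2 difference of -0.02 (95% interval -0.21 to 0.17, limma adjusted p = 0.970). The other row of its locus, Os02g0202950, held 26.7, 27.4 and 30.8 FPKM in PIF4-GFP and 25.5, 27.2 and 29.0 FPKM in GFP mock, with a log2 difference of 0.05 (95% interval -0.14 to 0.24, limma adjusted p = 0.914). In both rows the groups overlapped.

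**Figure D4:**
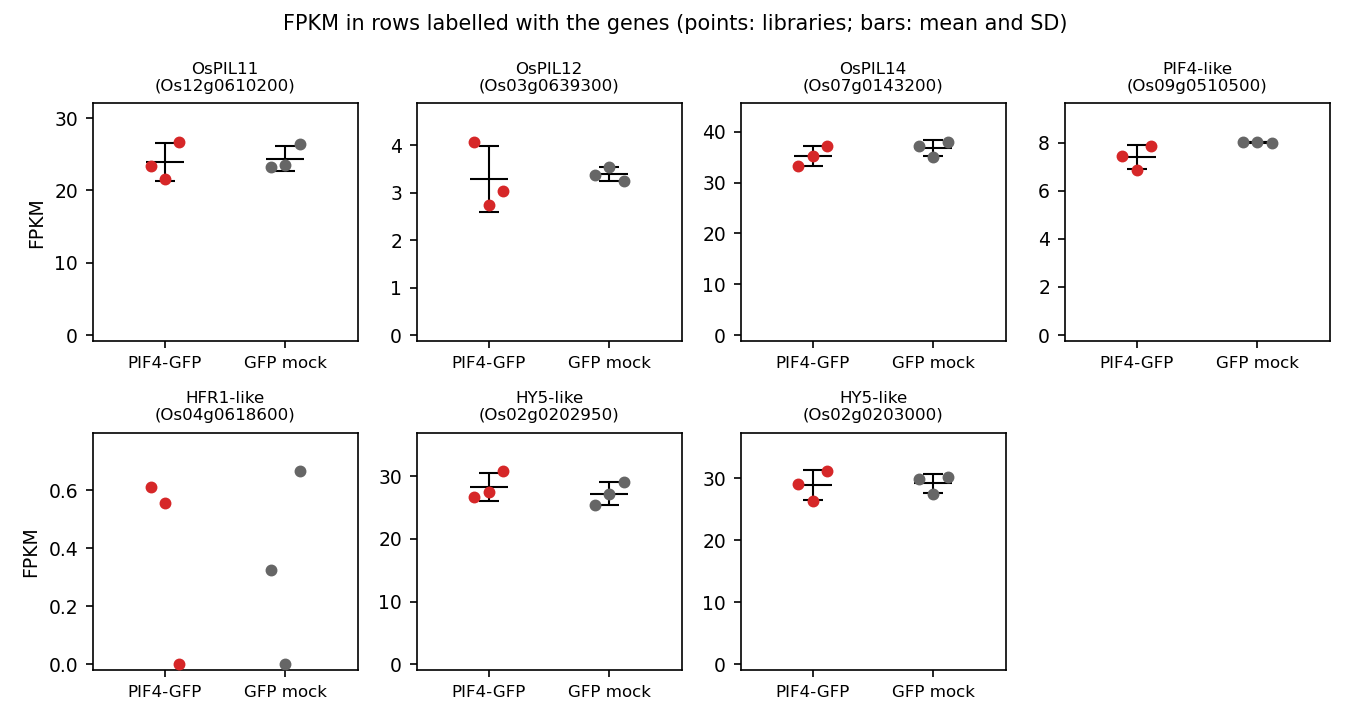
FPKM per library (points, linear axis from 0, replicates 1 to 3 from left to right) with the mean and SD of 3 libraries per group (bars, drawn where no library is at 0) in the 7 rows of the group with reads, PIF4-GFP in red and GFP mock in grey. The groups overlap in all rows but that of the PIF4-like gene, where PIF4-GFP lies between 6.86 and 7.85 FPKM and GFP mock between 7.998 and 8.021 FPKM.

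The remaining rows held few or no reads. The row labelled HFR1-like (Os04g0618600) was listed at 0.612, 0.555 and 0 FPKM in PIF4-GFP and 0.325, 0 and 0.666 FPKM in GFP mock, which is between 0 and 2 reads per library if the fewest reads that fit are taken, so no difference was detectable at this depth and the row was not tested. The rows labelled OsPIL13 (Os03g0782500) and OsPIL16 (Os05g0139100) were listed at 0 in all 6 libraries, as were 236 of the 1177 rows (20.1%). A count of 0 allows up to 3 reads per library, a limit that covers counting error only. OsPIL13 and OsPIL16 thus had a promoter peak and no reads in their rows, but the lengths behind such rows cannot be computed, so whether the zeros belong to these genes was not tested.

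In sum over the group, 0 of the 6 rows tested passed an adjusted p of 0.05 (limma on log2(FPKM + 1), 0 at an unadjusted p under 0.05), where 0% of the 847 rows tested did and 33 had an unadjusted p under 0.05. Differences ran from -0.10 to 0.05 with a median of -0.04. The median over all 847 rows was -0.06, so most of those also had a difference below 0. Both rows of the HY5-like locus are among the 6 rows of the group, and 1 of them, Os02g0202950, had the higher mean in PIF4-GFP. The mean was lower in PIF4-GFP for the other 5 of the 6 rows. With the libraries scaled to a common median, 4 of those 5 changed sign. Of the pathway list, 4 genes had rows, of which 2 were tested and 0 passed: OsbZIP01 (Os01g0174000) averaged 43.5 ± 1.92 FPKM in the PIF4-GFP libraries and 46.3 ± 2.98 FPKM in the GFP mock ones, and GLK2 (Os01g0239000) 27.2 ± 0.584 and 24.8 ± 1.11 (mean ± SD, n = 3 libraries, limma adjusted p = 0.895 for each). The OsbZIP48 and GLK1 rows were listed at 0 in all 6 libraries. The labels do not say whether replicates are different plants or pots, and these p-values then measure only the spread between libraries, which may be technical.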

How the data were processed

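The authors deposited 1 list of peaks with position, class and distance to the start of the assigned gene, and 6 tables of FPKM values. The unit was taken from the values. The submitters' processing notes name StringTie 1.3.0, HISAT2 2.0 and Bowtie 0.12.2 without roles, and also the mouse build mm8, although the loci are those of rice. The peak caller, its threshold and the rice build are stated by no source used here, and coordinates are printed as the files give them, counted from 1.

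Each gene was matched to peaks by its locus number and, separately, by position. Distances to gene starts used the spans in the expression tables, and for the HY5-like locus, which has 2 rows, the longer one. RefSeq (ASM3414082v1) was used for names and spans through the gene numbers in the tables. Library totals, lengths and reads were recovered as the smallest whole numbers that turn the FPKM values into whole reads (rows with 4 or more values, tolerance 0.0001). A factor of 3 shared by the totals and nearly all lengths is not fixed by the values and changes no FPKM value or read number of those rows. The method was checked on reads simulated from the recovered lengths, so that check cannot decide the factor of 3 or whether lengths belong to the row labels.

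For the comparison of groups, log2(FPKM + 1) was fitted in limma 3.58.1 under R 4.3.3, trend option on, for rows reaching 1 FPKM in 3 libraries or more. This scale understates changes of low rows. Tests were two-sided, with Benjamini-Hochberg adjustment over all 847 rows. The fit was tested on simulated data. Python 3.11.15, numpy 2.4.6, pandas 2.3.3, scipy 1.17.1 and matplotlib 3.10.9 were used. The genes, lists and tests were chosen with earlier results of these data known. The text names all 9 genes, genes of the pathway list, the loci of flanking peaks, and for each tested row the 2 rows with the highest correlation. Promoter and protein sequences were not used here.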

Additional observations from a re-analysis of the deposited data

How the results depend on the processing

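The number of genes with a listed peak, 6 of 9, was 5 with promoter peaks only, 5 with centres within 1000 bp of the start, 6 with peaks at least 1000 bp wide, and 7 when any listed peak within 2000 bp of the start counted, for the 8 genes with a known start. No member row passed an adjusted p of 0.05 under any of the 11 other settings of the fit. Over all rows the count went from 0 to 1 with the replicate number as a block (Os02g0550900), and lay between 0 and 2 when 1 library was left out, with 2 rows (Os07g0586900 and Os09g0466400) without PIF4-GFP replicate 2. The 3 names were chosen once their values had been seen. The main fit was planned without the block, because the labels do not say what a shared replicate number marks. The correlations of deviations between same-numbered libraries were 0.111, 0.156 and -0.088. Between differently numbered libraries they ran from -0.271 to 0.199. In limma with the block, 89 rows had an unadjusted p under 0.05, against 33 without it.

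Of 66 log2 differences of member rows, 55 kept their sign and 11 reversed, all of them small. After centring each library on its median, the rows labelled OsPIL11, OsPIL12, OsPIL14 and HY5-like (Os02g0203000) had 0.049, 0.031, 0.021 and 0.063. With 1 library left out, the range was -0.11 to 0.038 for OsPIL11 (0.038 without PIF4-GFP replicate 2, 0.026 without GFP mock replicate 3), -0.18 to 0.041 for OsPIL12, -0.070 to 0.046 for the HY5-like row Os02g0203000 (0.0013 without GFP mock replicate 1, 0.0087 without GFP mock replicate 3) and -0.0078 to 0.098 for Os02g0202950. The PIF4-like row stayed negative under all 11 settings, from -0.14 to -0.025. Limma's voom on the recovered reads, chosen after seeing the data, passed 0 of 847 rows, with 44 at an unadjusted p under 0.05. The cause of these changes was not tested. The planned change of promoter motif was not run, as promoter sequences were not used here.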

Other observations

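The rows whose values followed the tested rows most closely over the 6 libraries, after centring each library on its median, were named by the largest Pearson correlation. For the row labelled OsPIL11 these were Os05g0343400 (WRKY transcription factor 53, r = 0.975) and Os01g0577300 (similar to Rb, r = 0.935), and 6 rows exceeded 0.9. For OsPIL12 they were Os09g0549450 (similar to NIN-like protein 1, r = 0.918) and Os11g0154900 (a bZIP-class factor, r = 0.889). For OsPIL14 they were Os04g0690600 (similar to auxin response factor 13, r = 0.959) and Os11g0154500 (NAM domain, r = 0.954), with 12 rows over 0.9. The PIF4-like row was nearest to Os03g0164300 (conserved hypothetical, r = 0.962) and Os01g0236700 (Phox/Bem1p domain, r = 0.959). The HY5-like row Os02g0203000 was nearest to Os05g0474800 (WRKY transcription factor 70, r = 0.957) and Os03g0811400 (similar to DNA binding protein, r = 0.952), and Os02g0202950 to Os05g0417000 (similar to LOB domain protein 6, r = 0.979) and Os02g0833600 (a bZIP factor, r = 0.960). The points share their libraries, each r was the highest of 846, and the labels are those of rows, so these values describe the tables and nothing more.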
